A study of Bos taurus with 4 samples.

Results

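Enteroendocrine cells are described here through 10 genes that mark them, the hormone genes SST, GCG, GIP, CCK, PYY and NTS, the granin genes CHGA and CHGB, the granule gene SCG5 and the lineage factor NEUROD1. The members were taken by symbol from the read counts of 4 bovine libraries, and all 10 were found, each on 1 of the 29792 rows, which are named by gene symbol. There was 1 library each of intestinal tissue, of muscle, and of organoids grown from intestine and taken at passage 5 (P5) or passage 10 (P10). All 4 came from Hanwoo cattle older than 24 months. The organoids were grown in Matrigel with IntestiCult medium from jejunal crypts of healthy animals. The methods describe the medium as one for human organoids. The muscle is skeletal by its markers, and the layers of the intestinal wall that went into the tissue library were not given in the sources used here.

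Enteroendocrine cells are scattered single cells of the gut epithelium that store peptide hormones in dense granules and release them in response to food. They arise from crypt stem cells through a progenitor that transiently expresses NEUROG3. NEUROD1 acts after it, and granins such as chromogranin A help to form the granules. Subtypes are known by their hormone: D cells make somatostatin (SST), K cells make GIP, I cells make cholecystokinin (CCK), and L cells make glucagon-like peptides from GCG together with peptide YY (PYY), while neurotensin (NTS) is made by N cells and overlapping types. The study reported P5 organoids as stained for Chromogranin A, a marker of this lineage, and for GLP1, a product of GCG. It also reported staining for the bile acid receptor TGR5 at P5. By quantitative RT-PCR, it reported more Chromogranin A RNA in organoids, of a passage after P10, than in muscle. Stains show protein, while the reads here are RNA. The comparison made here is which of the hormone lineages could still be read as RNA in the organoids.

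Each group had 1 library, so no difference has a replicate check, no test was made and no p-value is given. The intervals below are exact 95% intervals of the counting error alone, and PCR copies are not independent molecules. The libraries summed to between 12917720 and 17776273 reads. Levels are given as CPM, the reads of a gene divided by the reads of its library and put on the usual common scale. QuantSeq reads come from the 3′ end of a transcript and were not scaled by length, so levels are compared between libraries and not between genes. A gene without a read may hold up to 3 reads, which is 0.169 CPM in intestine and P10 organoids, 0.221 CPM in P5 organoids and 0.232 CPM in muscle. A fold against such a gene is computed against these 3 reads and given as at least that fold. It leaves out the counting error of the other library, so the 95% interval can allow a smaller fold where reads are few. The 10 epithelial markers summed to 1880 CPM in intestine, 21.4 CPM in muscle and, in P5 and P10 organoids, 10263 and 9671 CPM, and the 9 skeletal muscle markers to 43361 CPM in muscle and between 1.97 and 3.38 CPM elsewhere. The sum is mostly KRT8, KRT18 and KRT19, which held 72.4% of it in intestine, 83.8% at P5 and 88.5% at P10. The single markers differed in size, from KRT18, 12.3-fold higher at P5 and 40.5-fold at P10, to VIL1, 2.08-fold and 1.2-fold higher.

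The enteroendocrine genes were read at a far lower level in organoids than in intestine. The 10 genes summed to 12976 reads in intestine, or 730 CPM (95% interval 717 to 743). They summed to 80 reads in P5 organoids, or 5.88 CPM (4.66 to 7.32), and 100 reads in P10 organoids, or 5.64 CPM (4.59 to 6.86). In muscle they had 45 reads, or 3.48 CPM (2.54 to 4.66). CHGA made up most of what remained, with 43 of the 80 reads in P5 organoids and 95 of the 100 in P10 organoids. In bulk RNA, fewer enteroendocrine cells and less hormone RNA per cell cannot be told apart.

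**Figure D1:**
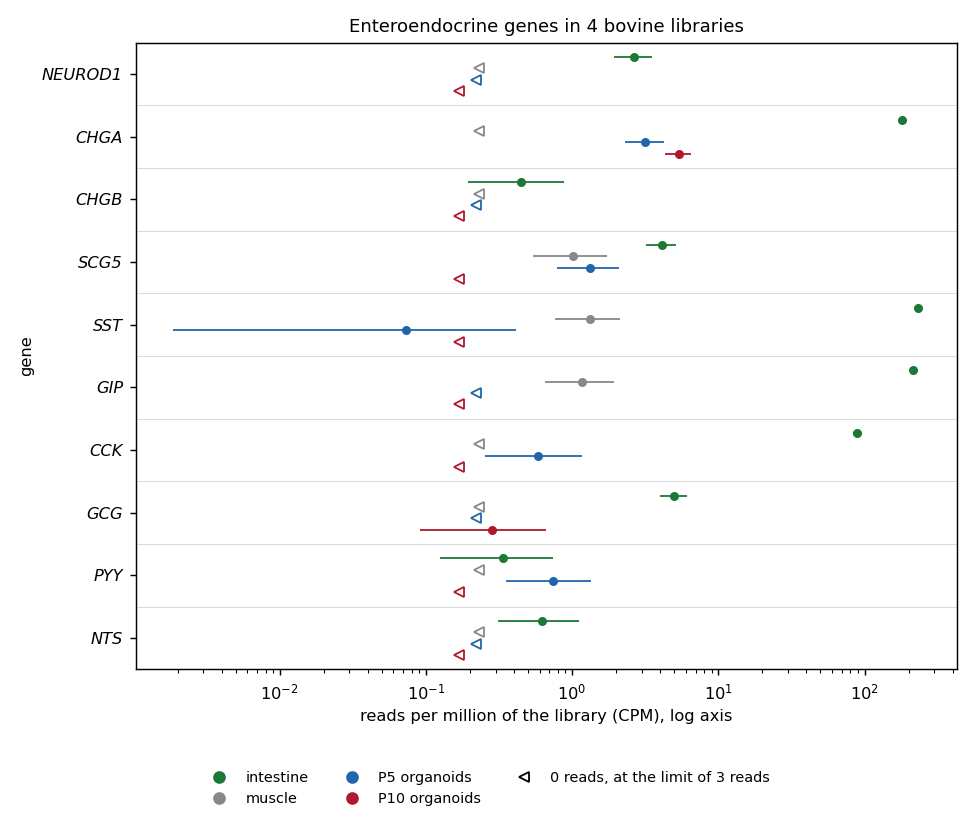
Level (CPM, log axis) of the 10 enteroendocrine genes in 4 libraries, with exact Poisson 95% intervals and open triangles for genes without a read, drawn at the limit of 3 reads. Intestine lies to the right of both organoid libraries for every gene but PYY, and CHGA is the 1 gene above 3 CPM in the organoids.

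A gene was counted as lower or higher when its CPM differed at least 2-fold. Rows entered a comparison when 1 of its libraries held at least 10 reads. In P5 organoids against intestine, 9 of the 10 members reached this number of reads. Of these 8 were lower and 1, PYY, was higher (within 2-fold with TMM or upper-quartile scaling), where 24.8% of the 17783 rows compared were lower and 21.5% higher. In P10 organoids, 8 members reached it and all 8 were lower, against 28.4% of 17803 rows lower and 26.8% higher. Scaled to the summed epithelial markers, 85.6% of rows were lower and 2.58% higher at P5, and 80.3% and 3.66% at P10. With EPCAM and VIL1 alone the shares were 65% and 5.58% at P5, and 38.9% and 15.5% at P10. The median log2 ratio was -4.49 over the 9 members at P5 and -4.84 over the 8 at P10, while over all rows compared it was 0.09 and 0.12. CHGB fell short of 10 reads in both comparisons and PYY in that of P10 organoids. A member read mainly in intestine could pass the filter only through its intestinal reads, so these counts describe the genes and are no support for a direction.

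NEUROD1, the transcription factor that carries the lineage on after NEUROG3, had 47 reads in intestine and none in P5 organoids, P10 organoids or muscle. This is 2.64 CPM (1.94 to 3.52) in intestine, at least 12-fold higher than in P5 organoids and at least 15.6-fold higher than in P10 organoids. Its RNA was not detectable in either passage at this depth.

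CHGA, which encodes the granule protein chromogranin A and is the broadest marker of these cells, was the member with most reads in both organoid libraries. It had 3219 reads in intestine, 43 in P5 organoids, 95 in P10 organoids and none in muscle. This corresponds to 181 CPM (175 to 187), 3.16 CPM (2.29 to 4.26) and 5.36 CPM (4.33 to 6.55) in the first 3. The level in P5 organoids was 57.3-fold lower than in intestine (42.4 to 79.3) and in P10 organoids 33.8-fold lower (27.6 to 41.9). Both organoid libraries still lay above muscle, whose limit is 0.232 CPM.

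The other granule genes had far fewer reads. SCG5, whose product 7B2 is a chaperone of the prohormone convertase PC2, had 73 reads in intestine, 18 in P5 organoids, none at P10 and 13 in muscle. It was 3.1-fold lower in P5 organoids than in intestine (1.83 to 5.52), which was within 2-fold with quantile normalisation (log2 ratio -0.90), and at least 24.3-fold lower in P10 organoids. The P5 level of 1.32 CPM (0.784 to 2.09) and the muscle level of 1.01 CPM (0.536 to 1.72) overlap. CHGB, the gene of chromogranin B, had 8 reads in intestine and none in the other 3 libraries, which left it too few reads to compare.

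Of the hormones, SST and GIP had most reads in intestine and next to none in organoids. SST had 4141 reads in intestine, 1 at P5, none at P10 and 17 in muscle. In intestine this is 233 CPM (226 to 240), which was 3168-fold higher than in P5 organoids, with a counting interval from 568 to 125163 that the single read sets, and at least 1377-fold higher than in P10 organoids. GIP, the incretin of K cells, had 3814 reads in intestine, none at P5 or P10 and 15 in muscle. Both hormones were therefore at or under the limit of 3 reads in each organoid library. GIP was at least 973-fold lower than intestine in P5 organoids and at least 1268-fold lower in P10 organoids.

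CCK, the hormone of I cells that releases bile and pancreatic enzymes, had 1569 reads in intestine, 8 in P5 organoids and none in P10 organoids or muscle. The 8 reads are 0.588 CPM (0.254 to 1.16), which was 150-fold lower than in intestine (76 to 348). In P10 organoids CCK was at least 522-fold lower than in intestine. CCK was thus read at a low level in P5 organoids and was not detectable in P10 organoids.

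The genes of L and N cells had few reads also in intestine. GCG had 88 reads in intestine, none in P5 organoids, 5 in P10 organoids and none in muscle. It was at least 22.4-fold lower in P5 organoids than in intestine and 17.6-fold lower in P10 organoids (7.24 to 55.4). With quantile normalisation the latter log2 ratio was -2.57, against -4.13 with library totals. The 5 reads of P10 organoids, 0.282 CPM (0.0916 to 0.658), have an interval that includes the limit of 0.221 CPM in P5 organoids. The study reported GLP1 staining at P5, which is of protein, and RNA and protein were not compared here. NTS had 11 reads in intestine and none elsewhere, at least 2.81-fold lower in P5 organoids and at least 3.66-fold lower in P10 organoids.

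PYY was the 1 member with more reads in an organoid library than in intestine. It had 6 reads in intestine, 10 in P5 organoids and none in P10 organoids or muscle. The level of 0.735 CPM in P5 organoids was 2.18-fold that of intestine, with an interval of the ratio from 0.717 to 7.29 that includes no difference. Scaled to the epithelial markers in place of the library total, PYY was lower in P5 organoids than in intestine, at a log2 ratio of -1.33.

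**Figure D2:**
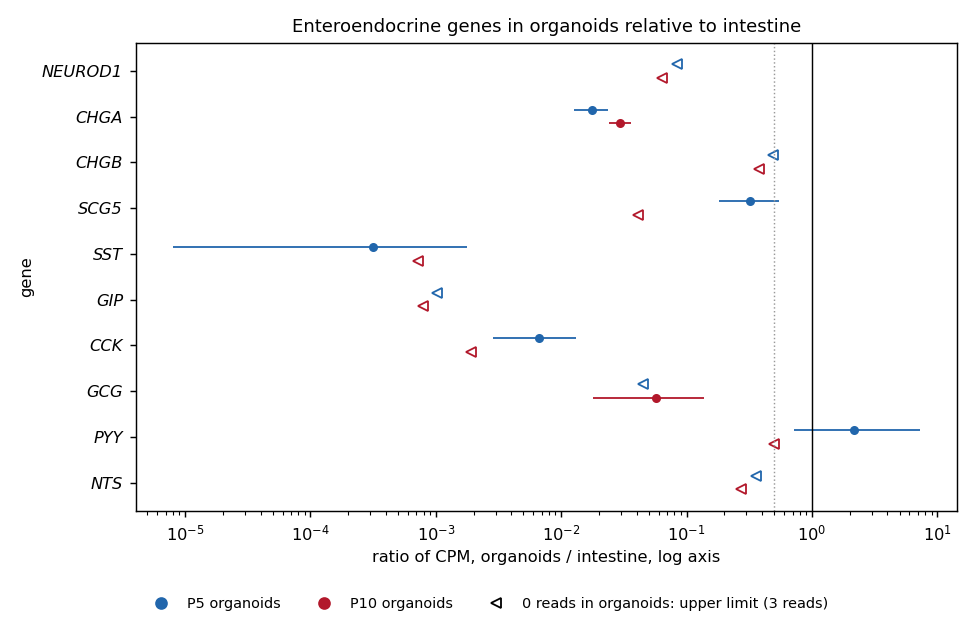
Ratio of CPM in organoids and in intestine (log axis) for the 10 genes, with exact 95% intervals of the counting error and open triangles for the upper limit where the organoid library had no read. The solid line marks no difference and the dotted line a level 2-fold lower, and PYY in P5 organoids is the 1 ratio above the solid line.

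Between the passages, most members had too few reads for a comparison. Only CHGA, PYY and SCG5 had at least 10 reads in either organoid library, and of these PYY and SCG5 were at least 2-fold lower in P10 organoids, against 18.0% of 16131 rows lower and 18.3% higher. SCG5 was at least 7.82-fold lower in P10 organoids and PYY at least 4.35-fold lower. CHGA went the other way and was 1.69-fold higher in P10 organoids (1.17 to 2.49), short of 2-fold. Scaled to the summed reads of EPCAM and VIL1, an alternative chosen after seeing the data, its log2 ratio was 1.60, where 10.4% of rows were lower and 48.3% higher. On that scale SCG5 was at -2.13, PYY at -1.28 and CCK at -0.96, short of 2-fold. CCK, with 8 reads in P5 organoids, was at least 3.48-fold lower in P10 organoids. With 1 library per passage, passage and culture cannot be told apart.

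The set of hormones read also differed between the libraries. In intestine, the 6 hormone genes had 9629 reads, of which SST took 43% (95% binomial interval 42 to 44), GIP 39.6% (38.6 to 40.6), CCK 16.3% (15.6 to 17), GCG 0.914%, NTS 0.114% and PYY 0.0623%. In P5 organoids they had 19 reads, of which PYY took 52.6% (28.9 to 75.6), CCK 42.1% (20.3 to 66.5) and SST 5.26% (0.133 to 26). The intervals of PYY, CCK, SST and GIP in P5 organoids do not overlap those in intestine, where the GIP interval in P5 organoids runs from 0 to 17.6%. In P10 organoids all 5 hormone reads were on GCG, a number too small to describe a make-up beyond a GCG share of at least 47.8%.

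**Figure D3:**
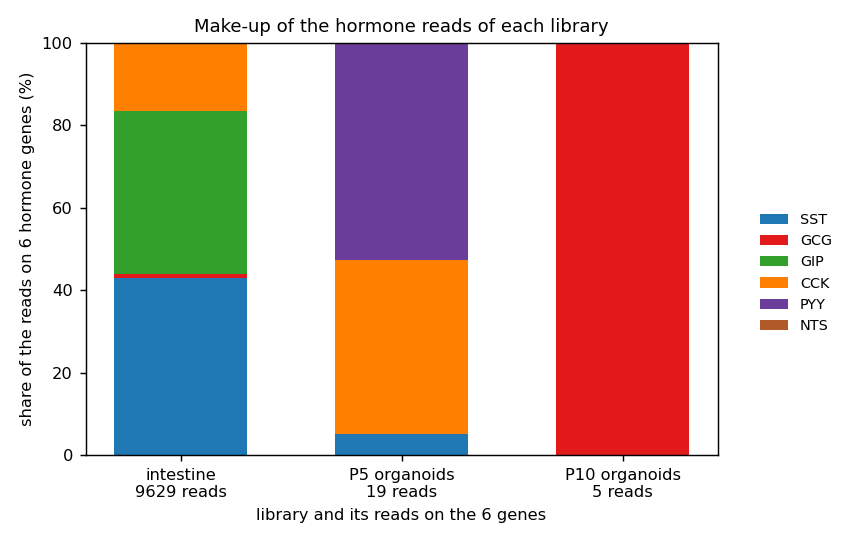
Share of the reads on SST, GCG, GIP, CCK, PYY and NTS (%) that each gene took in intestine, P5 organoids and P10 organoids, with the number of reads under each bar. SST and GIP fill most of the intestine bar, PYY and CCK most of the P5 bar, and the P10 bar rests on 5 reads.

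Relative to CHGA in the same library, a measure that does not depend on the library total, the summed hormone reads were also lower in organoids. For every 100 CHGA reads, the 6 hormones together had 299 reads in intestine (287 to 311), 44.2 in P5 organoids (24.3 to 77.5) and 5.26 in P10 organoids (1.67 to 12.7). SST went from 129 in intestine (123 to 135) to 2.33 in P5 organoids (0.0576 to 13.7), and GIP from 118 (113 to 124) to none, where 3 reads would be 6.98. PYY and SCG5 went in the opposite direction in P5 organoids. CHGA itself was 57.3-fold lower there than in intestine by CPM. SCG5 was 3.1-fold lower by CPM, at a level that overlapped that of muscle. PYY had 0.186 reads per 100 CHGA reads in intestine (0.0684 to 0.406) and 23.3 in P5 organoids (10.4 to 47), and SCG5 had 2.27 (1.77 to 2.86) and 41.9 (22.7 to 74.1). The GCG values of 2.73 in intestine (2.19 to 3.38) and 5.26 in P10 organoids (1.67 to 12.7) overlap. For GCG and NTS in P5 organoids, the limit of 6.98 lies above their intestine values of 2.73 and 0.342. For NTS and PYY in P10 organoids, the limit of 3.16 lies above 0.342 and 0.186, so a lower value could not be read for these.

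The factor that starts the lineage was present at both passages. NEUROG3 had 28 reads in intestine, 36 in P5 organoids, 51 in P10 organoids and none in muscle. This is 1.58 CPM (1.05 to 2.28) in intestine, 2.65 CPM (1.85 to 3.66) at P5 and 2.88 CPM (2.14 to 3.78) at P10. The ratio to intestine was 1.68 in P5 organoids (0.997 to 2.86) and 1.83 in P10 organoids (1.13 to 3.01), both under 2-fold. Scaled to the summed epithelial markers, the direction was the opposite, with log2 ratios of -1.70 and -1.49, and with EPCAM and VIL1 alone the log2 ratios were -0.76 and 0.19, so the direction at P10 depends on the markers. NEUROG3 was thus readable in organoids in which NEUROD1 had no read. Per 100 CHGA reads, with CHGA itself far lower in organoids, NEUROG3 had 0.87 reads in intestine (0.577 to 1.26). It had 83.7 in P5 organoids (52.2 to 133) and 53.7 in P10 organoids (37.4 to 76.2).

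Of the 18 lineage factors listed beside NEUROD1, 11 had at least 10 reads in intestine or P5 organoids, of which 6 were at least 2-fold lower in P5 organoids, 1 was higher and 4 were within 2-fold. In P10 organoids 8 of 11 were lower, 1 higher and 2 within 2-fold. The median log2 ratio was -1.35 at P5 and -2.90 at P10. Over all rows compared, 24.8% were lower and 21.5% higher at P5, and 28.4% and 26.8% at P10. Genes of this list and those that follow could pass the minimum through intestine alone, so their counts are descriptions. PAX6, a factor of hormone cells, had 57 reads in intestine, 10 in P5 organoids and 8 in P10 organoids, 4.36-fold and 7.11-fold lower. RFX6, which acts in the same cells, had 32 reads in intestine, 2 in P5 organoids and none in P10 organoids. INSM1, an early target of NEUROG3, had 5 reads in intestine, 5 in P5 organoids and none in P10 organoids, too few for a comparison. RUNX1T1 had 398 reads in intestine, 1 at P5 and 2 at P10, with 304-fold (54.3 to 12057) and 198-fold (54.6 to 1645) lower levels, and also 269 reads in muscle. ETV1 was 11.7-fold lower in P5 organoids and 107-fold lower in P10 organoids, the latter on 2 reads.

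Of the other factors, SOX4, which is also active in crypt progenitors, was within 2-fold of intestine, at 71.3 CPM in intestine, 99.7 CPM in P5 organoids and 83 CPM in P10 organoids. It was lower in both when scaled to the summed epithelial markers, at log2 ratios of -1.97 and -2.15, and with EPCAM and VIL1 alone at -1.03 and -0.46. MNX1 had 42 reads in intestine, 170 in P5 organoids and 177 in P10 organoids, which was 5.29-fold (3.76 to 7.6) and 4.23-fold (3 to 6.07) higher. HHEX, a factor of D cells that epithelium shares with endothelium, had 32 reads in intestine, 17 in P5 organoids and 4 in P10 organoids, 7.98-fold lower at P10. Of the 18 factors, SOX4, MNX1 and NEUROG3 alone had at least 10 reads in P10 organoids. Scaled to the summed epithelial markers, MNX1 was not higher, at log2 ratios of -0.05 and -0.28. With EPCAM and VIL1 alone its log2 ratio was 0.89 at P5, short of 2-fold, and 1.40 at P10.

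**Figure D4:**
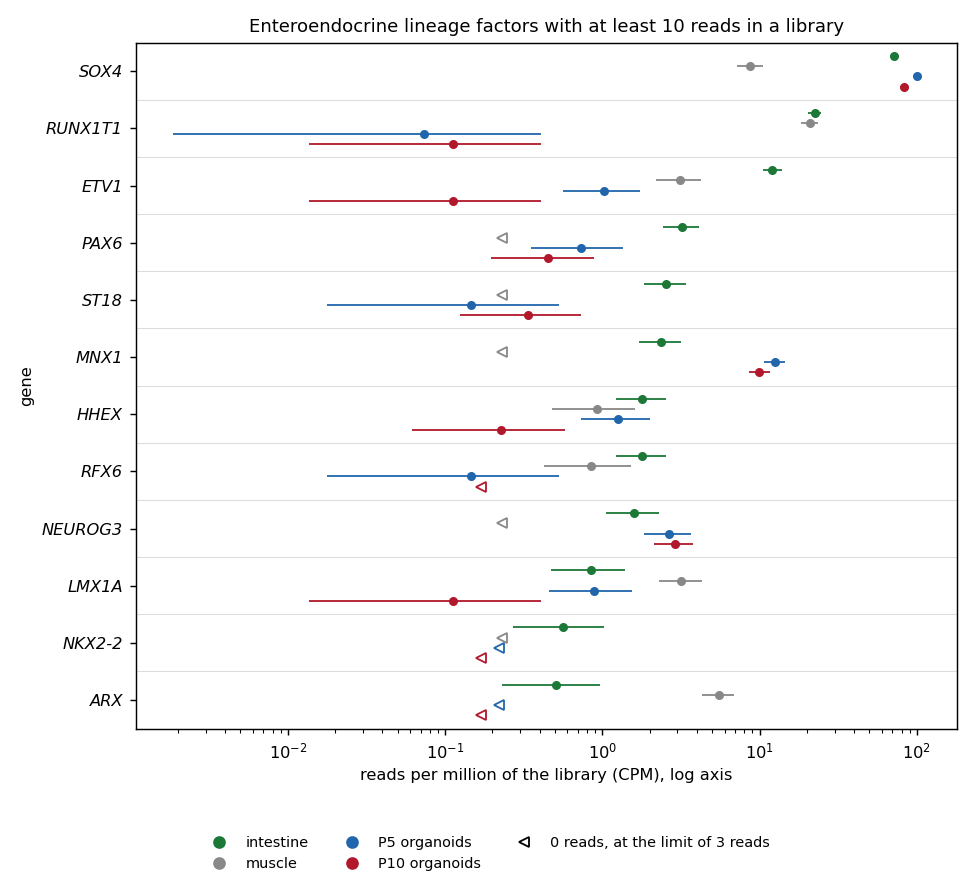
Level (CPM, log axis) of the 12 lineage factors with at least 10 reads in any library, drawn as in the plot of the 10 genes. On this scale NEUROG3, SOX4 and MNX1 lie above intestine in both organoid libraries, which reverses for all 3 when scaled to the summed epithelial markers but, with EPCAM and VIL1 alone, for SOX4 and for NEUROG3 at P5 only, while RUNX1T1, ETV1, PAX6, ST18 and RFX6 lie below it.

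Other hormones of the gut were compared in the same way. Of 14 further hormone and amine synthesis genes, 8 had at least 10 reads in intestine or P5 organoids, and 7 of these were at least 2-fold lower in P5 organoids (median log2 ratio -3.69). In P10 organoids 6 of 8 were lower (median -4.54). Over all rows compared, 24.8% were lower at P5 and 28.4% at P10. The 7 genes lower at P5 had fewer than 10 reads there and passed the minimum through intestine alone, so their count is a description. MLN, which encodes motilin, had 196 reads in intestine, none in P5 organoids and 2 in P10 organoids. SCT, the gene of secretin, had 105 in intestine, 9 in P5 organoids and none in P10 organoids, and was 8.93-fold lower in P5 organoids. GHRL, the gene of ghrelin, had 62 reads in intestine and none in either passage. PENK and TAC1, which enteric neurons also express, had 113 and 79 reads in intestine and none in organoids. ADM2, a peptide of the adrenomedullin family, had 55 reads in intestine, 4 in P5 organoids and 42 in P10 organoids.

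Genes of granule assembly and release, many of which other cells share, differed less. Of 24 such genes, 21 had at least 10 reads in intestine or P5 organoids, of which 12 were at least 2-fold lower, 2 higher and 7 within 2-fold (median log2 ratio -1.46). In P10 organoids 14 of 21 were lower, 2 higher and 5 within 2-fold (median -2.02). The shares over all rows compared were 24.8% lower and 21.5% higher at P5, and 28.4% and 26.8% at P10. The granins SCG2 and SCG3 had 59 and 149 reads in intestine, none and 1 in P5 organoids, and none in P10 organoids. CPE, the carboxypeptidase that trims prohormones, was 4.21-fold lower in P5 organoids and 7.79-fold lower in P10 organoids. PAM, which amidates peptide hormones and is broadly expressed, had 1505 reads in intestine, 1184 in P5 organoids and 897 in P10 organoids, within 2-fold in both. PTPRN2 was also within 2-fold of intestine in both passages. RIMBP2 had 42 reads in intestine, 37 at P5 and 56 at P10.

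Of 14 sensors through which these cells detect nutrients and other signals, 10 were compared in P5 organoids, of which 5 were at least 2-fold lower, 1 higher and 4 within 2-fold (median log2 ratio -0.91). In P10 organoids 6 of 11 were lower, 2 higher and 3 within 2-fold (median -1.39). The shares over all rows compared were 24.8% lower and 21.5% higher at P5, and 28.4% and 26.8% at P10. GPBAR1, the bile acid receptor TGR5, had 103 reads in intestine and none in either passage. It was at least 26.3-fold lower in P5 organoids and at least 34.2-fold lower in P10 organoids. The study reported TGR5 staining in P5 organoids, which is of protein, and RNA and protein were not compared here. FFAR4, a receptor of long-chain fatty acids that other epithelial cells share, had 18 reads in intestine, 125 in P5 organoids and 92 in P10 organoids, 9.08-fold (5.51 to 15.8) and 5.12-fold (3.07 to 9.03) higher. Its log2 ratio in P10 organoids was -0.01 when scaled to the summed epithelial markers, and with EPCAM and VIL1 alone 1.68. TRPA1, a chemosensory channel of enterochromaffin cells, had 1290 reads in intestine, 977 in P5 organoids and 1723 in P10 organoids, within 2-fold in both. It also had 182 reads in muscle, and which cells of the organoids carry its reads was not tested. The channel gene PIEZO2 was 4.49-fold lower in P5 organoids and 7.21-fold lower in P10 organoids. CASR was within 2-fold in P5 organoids and 4.99-fold lower in P10 organoids.

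Genes of other cell classes were also compared between intestine and organoids, where several tuft and neuron genes passed the minimum through intestine alone. Over all rows compared, 24.8% were lower and 21.5% higher at P5, and 28.4% and 26.8% at P10. Of the 7 goblet cell markers, 6 were at least 2-fold lower in each passage (median log2 ratio -2.32 at P5 and -2.62 at P10). MUC2 had 15017 reads in intestine, 1666 at P5 and 4242 at P10, and ZG16 had 137, 1 and 4. The 1 marker within 2-fold was AGR2, at 200 CPM in intestine, 309 CPM at P5 and 341 CPM at P10. Of the 8 tuft cell markers, 5 were compared, of which 4 were lower in P5 organoids and 3 in P10 organoids. At P10, 1 was higher, POU2F3, with 13 reads in intestine, 3 at P5 and 46 at P10. Enteric neurons, which also express SST, CHGB and SCG5, were marked by 16 genes that summed to 54.9 CPM in intestine, 84 CPM in muscle and, in P5 and P10 organoids, 9.34 and 35.1 CPM. UCHL1 carried much of these sums, with 559 of 622 reads in P10 organoids. Without it, a choice made after seeing the data, the other 15 summed to 32.5 CPM in intestine, 26.9 CPM in muscle and 6.47 and 3.55 CPM at P5 and P10. Of the neuron markers, 12 were compared in each passage, 10 were lower in P5 organoids and 9 in P10 organoids. VIP and ELAVL3, which mark neurons, had 104 and 22 reads in intestine and none in organoids. TUBB3 had 35 reads in intestine, 35 at P5 and 27 at P10. RET had 40, 30 and 31 reads in the same order, and both genes were within 2-fold of intestine in each passage. CHAT had no read in any library. The part of neurons in the difference of SST, CHGB and SCG5 was not tested. The 10 epithelial markers went the opposite way, with 10 of 10 at least 2-fold higher in P5 organoids and 7 of 10 in P10 organoids.

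**Figure D5:**
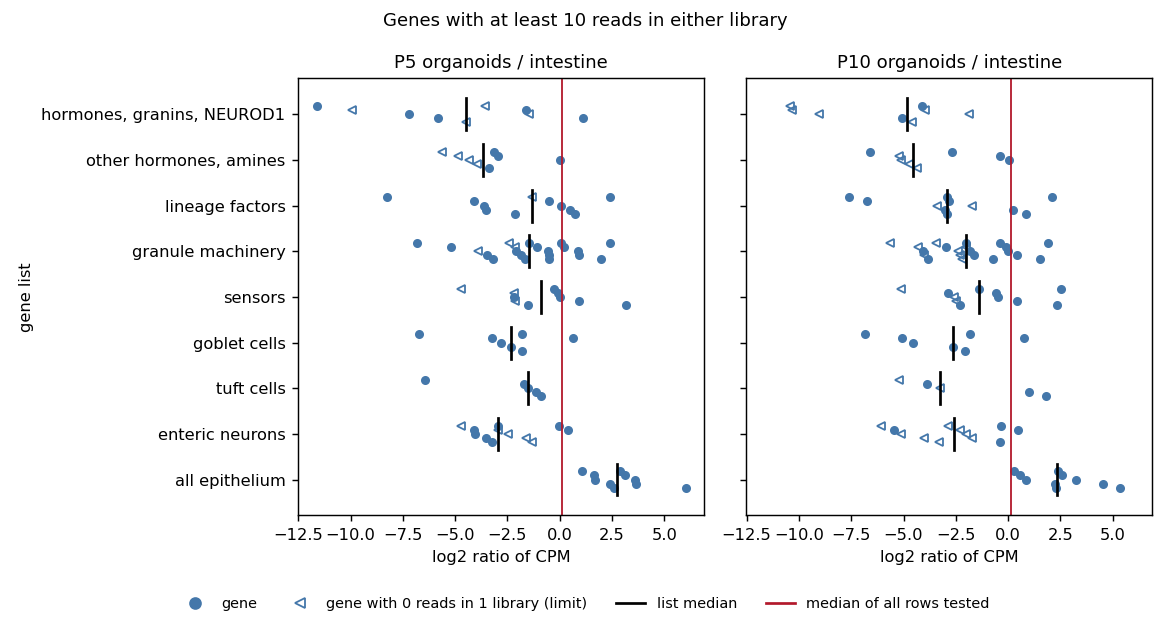
Log2 ratio of CPM in organoids and intestine for the genes of 9 lists with at least 10 reads in either library, with the list median in black and the median of all rows compared in red, 0.09 in P5 and 0.12 in P10 organoids. The medians of the hormone lists lie farthest to the left, and that of the epithelial markers to the right.

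Of the 16759 rows with at least 10 reads in intestine, 7.57% had no read in P5 organoids and 10.4% none in P10 organoids, and of the 8 members with that many reads, 4 and 6 had none. The minimum is on intestine, where these genes are high, so the counts are a description.

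The genes whose levels over the 4 libraries were most like those of CHGA were ONECUT2, BCO1, LYSB, DNASE1L3 and LOC100298868 (from near to far), by the Euclidean distance of centred log2(CPM + 0.5) values over 13317 other rows with at least 50 reads in intestine. ONECUT2, which encodes a transcription factor of gut and liver, lay at a distance of 0.80, with 13290 reads in intestine, 221 at P5, 330 at P10 and 39 in muscle. BCO1, which cleaves carotene, was next, with 1623 reads in intestine, 45 at each passage and none in muscle. The last 3 lay at 1.20, 1.29 and 1.59. The likeness rests on 4 libraries and describes a high level in intestine, an intermediate one in organoids and a low one in muscle.

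Muscle served as the background for all 10 genes. CHGA, CCK, GCG, NEUROD1, NTS, CHGB and PYY had no read in it. SST and GIP had 17 and 15 reads, which is 0.411% and 0.393% of their reads in intestine, and more than either had in organoids. The epithelial markers had in muscle a summed 0.829% of their intestine reads and the goblet cell markers 0.316%, and the part of a common source in these reads was not tested. Of the members, 8 had at least 10 reads in muscle or intestine and all 8 were at least 2-fold lower in muscle, where 57.1% of 17559 rows were lower. With quantile normalisation in place of library totals, 7 of these 8 were lower, with 32.3% of rows lower and 27% higher, against 11.5% higher with library totals. With TMM it was also 7, with 34.6% and 23% of rows, and with the upper quartile 6, with 31.5% and 26%.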

How the data were processed

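RNA of 4 samples was sequenced with the QuantSeq 3′ mRNA-Seq kit. Per the methods, alignment was by Bowtie2 and counting, of both unique and multiple alignments, by Bedtools. Genes with near-identical copies are therefore uncertain. The files the authors deposited hold whole-number read counts by gene symbol, not normalised. Genome build and annotation are not given in the sources used here. Library totals were 17776273 (intestine), 12917720 (muscle), 13599831 (P5) and 17730571 (P10) reads. Of 29792 rows, 22200 had a read, and 1805 share a symbol with another row, no member among them.

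Counts were scaled to library totals. The study's methods name quantile normalisation, which turns a single read into 0.32 (log2) for intestine, 0.81 for P5 organoids and 2.09 for the rest. As members have few reads, it was used as an alternative, with TMM, upper quartile, totals without RN18S1, summed epithelial reads and other filters. Intervals are exact (Poisson for levels, Clopper-Pearson for shares and ratios), and were checked on counts drawn with known folds. Members and lists were chosen with earlier results of these data known. Genes were named from all members and, of each list, the 3 genes with most reads in intestine and up to 6 with at least 10 reads in organoids. NEUROG3 was named in addition. SCT, GHRL, TAC1, INSM1, RFX6, ST18, SCG2, SCG3, SLC18A1, PCSK1, PCSK2, PCSK1N, GPBAR1, CHAT, ELAVL3 and ZG16 are outside this rule and were chosen after their values were seen. No sequence is printed. Python 3.11.15, scipy 1.17.1, R 4.3.3, edgeR 4.0.16 and limma 3.58.1 were used.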

Additional observations from a re-analysis of the deposited data

Results flagged for a closer look

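With library totals, 4 of the named genes had ratios to intestine above 1 at one passage and below 1 at the other, with intervals of the counting error that leave out 1. The difference between the passages was not tested, since each has 1 library. LPAR5, a receptor of lysophosphatidic acid, had 332 reads in intestine, 477 at P5 and 126 at P10, a log2 ratio of -2.30 between P10 and P5 organoids. KCNJ11, a subunit of the potassium channel that couples glucose to hormone release, had 7 reads in intestine, none at P5 and 41 at P10, a log2 ratio of 3.39 with the 0 reads set to 3. Its reads in intestine and P5 organoids are under the minimum of 10, so no level at P5 is called. It also had 129 reads in muscle. UCHL1, listed as a neuron marker and expressed by other cells, had 399 reads in intestine, 39 in P5 organoids and 559 in P10 organoids (log2 ratio 3.46). SH2D6, a tuft cell gene, had 80, 21 and 157 reads in the same order (log2 ratio 2.52). Scaled to the summed epithelial markers, LPAR5 at P5 (-1.54), UCHL1 at P10 (-1.87) and SH2D6 at P10 (-1.39) were below intestine. KCNJ11 alone kept opposite signs, at log2 ratios of -3.29 at P5, on no read, and 0.19 at P10, within 2-fold of intestine. Intervals were not computed on this scale. With EPCAM and VIL1 alone, LPAR5 at P5 (-0.60) and UCHL1 at P10 (-0.18) were below it and SH2D6 at P10 (0.30) above it. None of the 10 enteroendocrine genes met this condition, and PYY missed it because its interval in P5 organoids included no difference.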

How the results depend on the processing

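No paired analysis was possible because each group has 1 library, and no library could be left out. The numbers of members at least 2-fold lower stayed within 1.5 times in all alternatives run, except between the passages, where a minimum of 50 reads left CHGA alone and 0 lower. Against intestine the number lay between 6 and 9 at both passages. The 25 member ratios between intestine and organoids or between the passages kept their direction with quantile, TMM and upper-quartile normalisation and without RN18S1. Scaled to summed epithelial reads, 24 of 25 did, and PYY in P5 organoids turned to -1.33. With EPCAM and VIL1 alone, chosen after seeing the data, it was -0.39. In most of the 25 ratios 1 library had no read, and such a ratio keeps its direction under nearly any scaling. This agreement is therefore largely set in advance and is no support for a direction. Under the epithelial scaling the higher levels of MNX1 became log2 ratios of -0.05 in P5 and -0.28 in P10 organoids, that of FFAR4 in P10 organoids -0.01 and that of the tuft cell factor POU2F3 in P10 organoids -0.54. This scaling moved the median of all rows by -2.45 in P5 and -2.36 in P10 organoids, so that 85.6% and 80.3% of rows were at least 2-fold lower. TMM moved it by -0.17 and -0.24, and quantile normalisation by 1.22 in muscle. Depth limits the organoid values, since 5 of the 10 members had no read in P5 and 8 none in P10 organoids.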

Other observations

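Genes of the serotonin pathway, grouped here after their values were seen, differed among themselves. TPH1, the rate-limiting enzyme of serotonin synthesis in enterochromaffin cells, had 71 reads in intestine, 7 at P5, 11 at P10 and 9 in muscle, and was 7.76-fold lower than intestine in P5 organoids and 6.44-fold lower in P10 organoids. DDC, which makes serotonin from its precursor and is also an enzyme of enterocytes, had 56.2 CPM in intestine, 56 CPM in P5 organoids and 57 CPM in P10 organoids. Of the vesicular monoamine transporters, SLC18A1 had 16 reads in intestine, 22 in P5 organoids and none in P10 organoids, and SLC18A2 had 175, 93 and 43. Between the passages SLC18A1 was at least 9.56-fold lower in P10 organoids and SLC18A2 2.82-fold lower, with a ratio between 0.241 and 0.514.

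The prohormone convertases, also picked after their values were seen, were read in different passages. PCSK1, the enzyme PC1/3 that releases GLP1 from proglucagon, had 7 reads in intestine, 3 in P5 organoids and 26 in P10 organoids, 6.65-fold higher in P10 than in P5 organoids (ratio interval 2.04 to 34.3). PCSK2, the enzyme PC2, had 3 reads in intestine, 12 in P5 organoids and 1 in P10 organoids, 15.6-fold lower in P10 organoids (ratio interval 0.0015 to 0.432). SCG5, the partner of PC2, likewise had 18 reads in P5 organoids and none in P10 organoids. PCSK1N, which encodes an inhibitor of PC1/3, had 11 reads in intestine, 33 in P5 organoids and 32 in P10 organoids. All 4 genes rest on few reads of single libraries.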
